A study of Mus musculus with 12 samples.

Results

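The livers labelled liver-null for Txnrd1 were compared with wild-type livers, both taken from mice injected with saline. The comparison rests on 6 of the 12 arrays of the series, chosen by the genotype and the agent in the labels: wild-type saline 8, 9 and 10, and liver-null saline 4, 5 and 16. The mice were adult males of strain C57BL6/J, 8 weeks old, and livers were harvested 8 hours after an injection into the peritoneum. In the liver-null mice a conditional-null allele of txnrd1 was disrupted by albCre, a Cre recombinase driven by the albumin promoter. Albumin is made by hepatocytes, so the other cells of the liver keep the gene. The labels call the control mice wildtype and do not say whether they carried the conditional allele or the Cre. The other 6 arrays came from mice of both genotypes given acetaminophen (APAP) and entered the estimate of the spread between arrays. They also entered the choice of each gene's probe set, the filter for genes tested and the split of arrays by upper quartile (below). Their own differences are given only where APAP is named. The series' design text calls the 3 livers of a group biological replicates, and each was read on its own Affymetrix array, on which a gene is measured by 1 or more probe sets. The series title speaks of a shifted metabolic bias in such livers, and the comparison asks which transcripts differed before any drug was given.

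Txnrd1 encodes the cytosolic thioredoxin reductase, a selenoprotein that uses electrons from NADPH to reduce thioredoxin. Reduced thioredoxin in turn supplies ribonucleotide reductase, peroxiredoxins and other enzymes, and glutathione reductase (Gsr) runs a parallel NADPH-fed system. When reductive capacity falls, the sensor KEAP1 can release the transcription factor NRF2, which switches on genes for glutathione transfer, quinone reduction, drug export and NADPH supply. The liver also spends NADPH on making fatty acids and sterols, under the control of SREBP transcription factors and ChREBP.

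The arrays were alike in their medians, 2.91 to 2.99 on the log2 scale of the deposited values over all 12 arrays, so a value near 3 carries little signal. Their upper quartiles differed. It was 5.49 on wild-type 10 and 5.53 on liver-null 16, against 5.73 to 5.83 on the other 4 saline arrays, and each of the 4 groups held 1 array with such a lower upper quartile. The labels do not name these sets. Because the sets are balanced between the groups, entering the set as a covariate leaves every difference as it is and changes its error: the median residual SD of a gene was 0.21 without the covariate and 0.16 with it. The tissue label was borne out by its markers: the mean level of 20 tested hepatocyte markers, among them albumin (Alb) at 13.8 in wild-type and 13.7 in liver-null livers, lay between 11.96 and 12.09 on all 6 arrays, and none of the 20 passed the test of genotype. In bulk liver, fewer cells of a type and less RNA per cell cannot be told apart.

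Txnrd1 itself was higher in the livers labelled liver-null. Its probe set with signal read 9.43, 9.58 and 9.81 in wild-type 8, 9 and 10, and 10.26, 10.47 and 10.32 in liver-null 4, 5 and 16. All 3 liver-null arrays lay above all 3 wild-type arrays, a 1.67-fold difference (log2 0.74, SE 0.12, limma adjusted p = 0.0206). The difference was 0.86 between the 4 arrays with the higher upper quartile and 0.51 between the other 2. The call was lost without wild-type 8 or 9 or liver-null 4 or 5, with differences of 0.66 to 0.84 over the 6 fits that each left out 1 saline array. The other 2 probe sets of the gene read 1.43 and 1.92 in wild-type livers and 1.40 and 1.81 in liver-null livers, below the level of signal. The position of these 3 probe sets with respect to the excised sequence was not analysed, and Txnrd1 therefore gives no check of the genotype labels, and groups are named as labelled.

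Without the covariate, 54 of 8469 genes tested differed between the genotypes, 31 higher and 23 lower in liver-null livers (limma, Benjamini-Hochberg adjusted p under 0.05), which is 0.638% of genes, 0.366% higher and 0.272% lower. These are the genes described as called. With the array set as a covariate 243 genes passed, 2.87%, of which 104 were higher (1.23%) and 139 lower (1.64%), and all 54 were among them. Over all genes the median difference was -0.03 and the median absolute difference 0.14. Of the 8469 genes, 4673 were lower and 3796 higher in liver-null livers, called or not. At least a 2-fold difference was seen in 155 genes, and 33 of these were called. The called genes ran from a log2 difference of 3.89 (Ctse) to -4.13 (Angptl8), and the smallest absolute difference among them was 0.55 (Nsmf). Ctse counts as higher only by the probe set that represents it, and its other probe set went the other way (below). Of the 31 genes called higher, 9 had a wild-type mean under 4, near the array medians. None of the 23 called lower did, but for a fall the wild-type mean is the higher of the 2 group means. These counts therefore cannot be compared. The genotypes did not overlap in any called gene. The calls were made on these same arrays, so this describes the values and adds no support. Of all genes tested, 15.2% had no overlap (6.48% higher and 8.7% lower in liver-null livers).

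**Figure D1:**
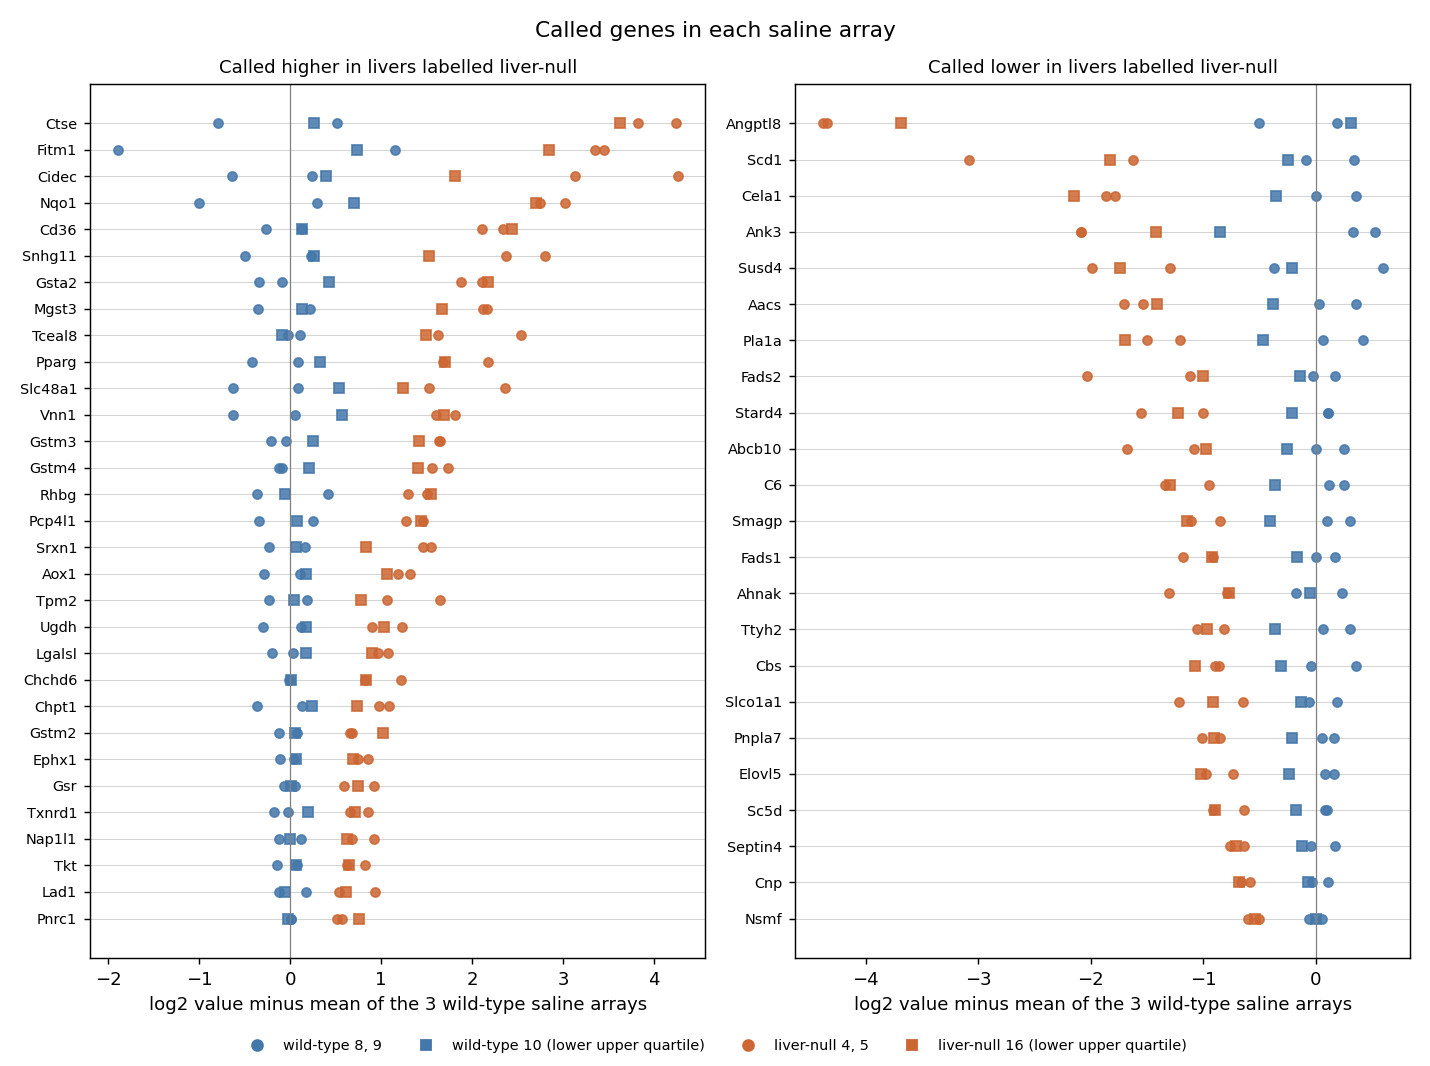
Each row is a called gene and each point 1 saline array, plotted as its log2 value minus the mean of the 3 wild-type saline arrays; genes higher in liver-null livers are on the left (31), lower on the right (23), and squares mark the arrays with the lower upper quartile. The 2 genotypes do not overlap in any row, but the rows were chosen by a test that used these arrays. Wild-type 8 stands apart from the other wild-type arrays for Fitm1, at 3.11 against 6.15 and 5.73.

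The number of calls depended on single arrays. It was 10 without wild-type 8, 10 without wild-type 9, 13 without liver-null 4 and 11 without liver-null 5, but 92 without wild-type 10 and 79 without liver-null 16, the arrays with the lower upper quartile. The genes that kept their calls in all 6 fits were Cd36, Cela1, Ctse, Pcp4l1, Rhbg and Stard4, while Ephx1, Lad1 and Nsmf lost theirs in each. With the covariate the counts without 1 array ran from 35 (wild-type 8) to 221 (liver-null 16), and 24 of the 54 genes passed in all 6 fits. These 24 held the redox genes Gsr, Nqo1, Tkt, Txnrd1 and Ugdh and the lipid genes Angptl8, Cd36, Fads1, Sc5d and Stard4.

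Within the array sets the directions were alike. All 54 called genes had the same sign between liver-null 16 and wild-type 10 as between liver-null 4 and 5 and wild-type 8 and 9, against 63.0% of all genes tested. The difference was larger in the set with the higher upper quartile for 50 of the 54. Cd36 differed by 2.29 and 2.31 in the sets and Angptl8 by -4.20 and -4.00, whereas Ank3 differed by -2.51 and -0.57 and Slc48a1 by 2.21 and 0.70. The called genes include these arrays in their fit, so the shared direction is a description of the values.

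**Figure D2:**
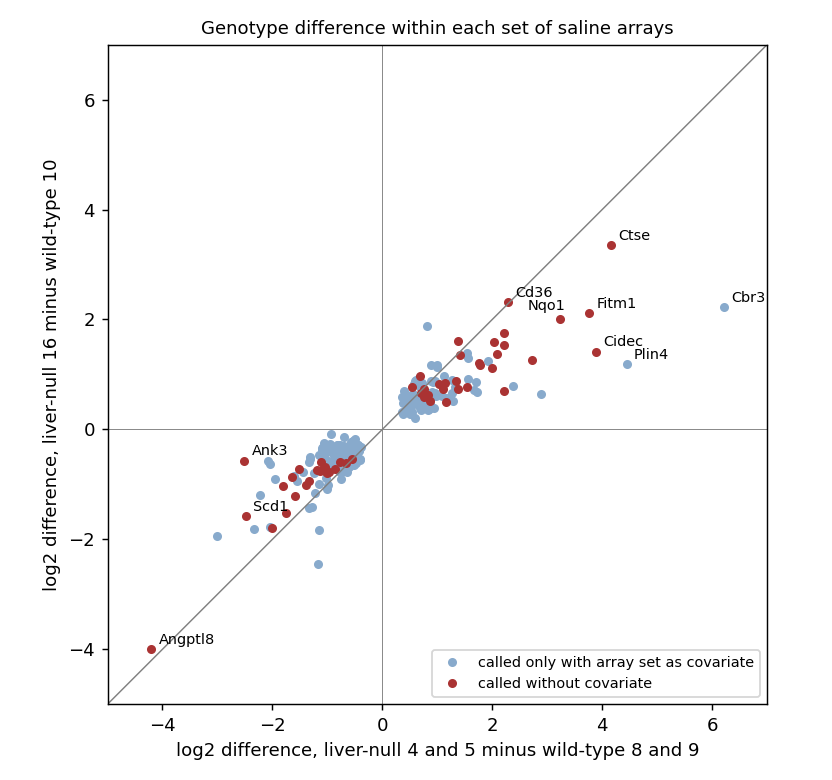
Each point is a gene that passed with the array set as a covariate, at its log2 difference between liver-null 4 and 5 and wild-type 8 and 9 (horizontal) and between liver-null 16 and wild-type 10 (vertical); red points (54) also passed without the covariate and blue points (189) did not. All points lie in the quadrants of equal sign, and Cbr3 (6.22 and 2.22), Plin4 (4.44 and 1.19) and Cidec (3.89 and 1.41) fall far below the diagonal.

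Further probe sets of the called genes gave a view that the choice of 1 probe set per gene does not use. For 26 of the 54 genes, 40 other probe sets had signal, and 39 of these differed in the same direction as the probe set that represents the gene, by as little as 0.02, and 14 passed the threshold on their own. Cd36, a fatty acid receptor, was higher on all 3 of its probe sets (log2 2.30, 2.34 and 1.14), and Chpt1, which makes phosphatidylcholine, on all 4 (0.93, 1.43, 1.48 and 1.32). The second probe set of the heme transporter gene Slc48a1 read 4.90 against 7.13 (log2 2.23, limma adjusted p = 0.0117). Aacs, which activates acetoacetate for lipid synthesis, fell by 2.47 on a second probe set against 1.55 on the first. Ctse, which encodes an aspartic protease, cathepsin E, was the exception. Its represented probe set read 2.79, 4.1 and 3.84 in wild-type and 7.82, 7.40 and 7.20 in liver-null livers, while the other read 4.79, 4.13 and 3.27 against 2.25, 2.19 and 2.23. These probe sets separated the genotypes in opposite directions, so no direction is given for Ctse. The other probe set of Mgst3 read 2.73 and 2.75 and that of Ahnak 3.53 and 3.47, with no difference seen near background.

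**Figure D3:**
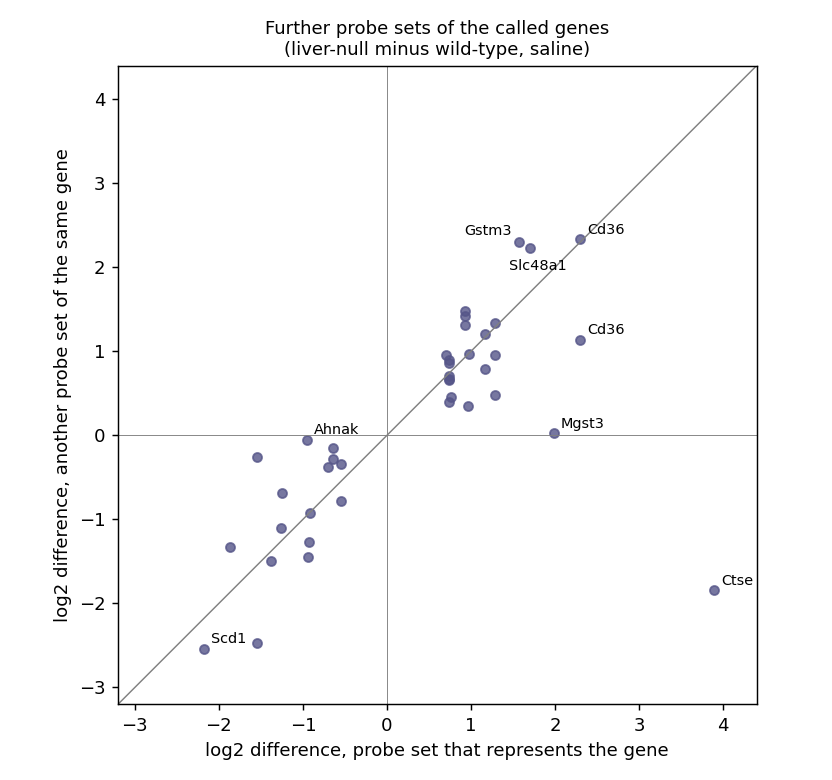
Each of 40 points is a further probe set with signal of a called gene, at the log2 difference of the probe set that represents the gene (horizontal) and its own (vertical), liver-null minus wild-type, with the diagonal of equal differences. All points but Ctse, at 3.89 and -1.84, have equal signs on both axes, and several lie near 0 on the vertical axis, among them Mgst3 (1.99 and 0.02), Ahnak (-0.95 and -0.05) and Aacs (-1.55 and -0.25).

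Of the 51 gene lists, the core targets of NRF2 held the most called genes. Of 29 tested members, 13 were called higher and none lower, where 0.366% of all genes were called higher, and the median difference was 1.07 against -0.03 over all genes. Of the 29, 28 were higher, against 3796 of all 8469 genes. In 23 the groups did not overlap with liver-null higher, as in 6.48% of all genes. Averaged over its members as deviations from each gene's mean over the 6 arrays, the list stood at -0.91, -0.50 and -0.33 in wild-type 8, 9 and 10 and at 0.59, 0.77 and 0.38 in liver-null 4, 5 and 16. Its median difference was 1.18 in the set with the higher upper quartile and 0.69 in the other.

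The genes that reduce quinones, carbonyls and epoxides held the largest changes of the NRF2 list. Nqo1, a quinone reductase that is a standard NRF2 target, read 2.88, 4.17 and 4.58 in wild-type and 6.63, 6.90 and 6.58 in liver-null livers. The liver-null arrays were close together and far above the wild-type arrays, of which wild-type 8 was the lowest, at background (7.09-fold, log2 2.83, SE 0.39, limma adjusted p = 0.0127). Aox1, aldehyde oxidase, rose 2.28-fold, from 8.78, 9.18 and 9.24 to 10.26, 10.38 and 10.13, and Ephx1, microsomal epoxide hydrolase, rose 1.70-fold. Aox3, a second aldehyde oxidase, was lower by 0.63 and passed only with the covariate (limma adjusted p = 0.0170).

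Cbr3, a carbonyl reductase, had the largest difference of any gene tested and missed the call, a rank that rests on wild-type 8. It read 2.37, 5.71 and 7.62 in wild-type 8, 9 and 10, and 9.99, 10.53 and 9.84 in liver-null livers. The wild-type arrays spread over more than 5 log2 units, all below the liver-null arrays (log2 4.89, SE 1.09, limma adjusted p = 0.0674 without and 0.0272 with the covariate). The difference was 3.45 without wild-type 8, less than that of Angptl8 (-4.13), and 6.08 without wild-type 10, the extremes over the fits that left out 1 array. Its neighbour in function Cbr1 was 2.60-fold higher, at 9.0, 9.34 and 9.91 against 10.62, 11.17 and 10.60, and likewise passed only with the covariate (limma adjusted p = 0.0410). Of 21 tested genes of quinone, carbonyl and epoxide reduction 3 were called higher, as were 0.366% of all genes, and none lower. The median was 0.15, and the remaining members included Akr1a1 at 0.30 and Nqo2 at -0.52.

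Glutathione S-transferases, which join glutathione to reactive compounds, rose in part. Of 20 tested, 5 were called higher (Gsta2, Mgst3, Gstm3, Gstm4 and Gstm2) and none lower, with a median of 0.45. Of all genes, 0.366% were called higher. Gsta2 read 9.86, 9.62 and 10.38 in wild-type and 11.83, 12.06 and 12.13 in liver-null livers, a 4.15-fold rise to near the top of the array's range (log2 2.05, SE 0.39, limma adjusted p = 0.0432). Gstm3 read 9.52, 9.69 and 9.98 against 11.38, 11.37 and 11.15, and a second Gstm3 probe set rose by 2.30 (limma adjusted p = 0.0157). Gstm4 rose by 1.57 and Gstm2 by 0.79, but the mu-class genes are close in sequence and their probes may share transcripts. Gstt2 (1.14) passed only with the covariate, and Gstt3 (1.72) and Gsta4 (1.16) passed neither fit. Of the uncalled members some were level or lower: the differences were -0.07 for Gstp1, -0.00 for Mgst1 and -0.58 for Gstm7. Gsta2 lost its call without any saline array but wild-type 10, with differences of 1.89 to 2.27, and the other 4 lost theirs without wild-type 8 or 9 or liver-null 4 or 5, the smallest difference being 0.67 for Gstm2 and the largest 2.14 for Mgst3.

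The genes of the redox cycles themselves were measured as 3 lists. Srxn1, sulfiredoxin, which repairs overoxidised peroxiredoxins, read 7.11, 7.51 and 7.41 in wild-type and 8.80, 8.89 and 8.18 in liver-null livers, a 2.43-fold rise; all 4 of its probe sets were higher and 3 passed. Gsr read 6.90, 6.79 and 6.86 against 7.45, 7.77 and 7.60, a 1.69-fold rise with differences of 0.77 and 0.74 in the array sets. The Srxn1 call was lost without wild-type 8 or 9 or liver-null 4 or 5 (1.15 to 1.50 over the fits) and the Gsr call without wild-type 8 or 9 or liver-null 5 (0.67 to 0.84). Beside Txnrd1, no other of 14 tested genes of the thioredoxin and glutaredoxin system was called: Txn1, the substrate of the enzyme, was higher by 0.13, the mitochondrial reductase Txnrd2 by 0.12, and Txnrd3 was lower by 0.68. Of 19 peroxide-handling enzymes Srxn1 alone was called, where 0.366% of all genes were called higher. Gpx2 was at 0.60, Prdx3 at 0.28, catalase (Cat) at 0.10 and Gpx1 at -0.01. Groups did not overlap for 8 of the 19, 7 of them higher, against 15.2% of all genes, 6.48% higher. Gclc, the catalytic subunit of the enzyme that starts glutathione synthesis, read 9.81, 10.26 and 10.30 against 10.38, 11.20 and 10.76, a difference of 0.66 that missed both fits (limma adjusted p = 0.375 and 0.209), and its partner Gclm was at 0.31.

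The transcript of the regulator did not go up with its targets. Nfe2l2, the gene of NRF2, read 7.36, 7.43 and 7.22 in wild-type and 6.87, 6.55 and 6.54 in liver-null livers. The liver-null arrays were all lower, by 0.69 in each of the array sets (limma adjusted p = 0.0864, and 0.0476 with the covariate). None of the 14 tested NRF2 pathway regulators was called, and Keap1 (0.18), Cul3 (0.14) and Bach1 (0.11) differed little. Of 15 tested genes of other selenoproteins and of selenium handling, none passed either fit, and their median was -0.09. Groups did not overlap for 7 of the 15, 6 of them lower, against 15.2% of all genes, 8.7% lower.

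The supply of NADPH and of conjugation cofactors changed at single steps. Ugdh, which makes the UDP-glucuronate used in glucuronidation, read 9.97, 10.38 and 10.44 in wild-type and 11.16, 11.49 and 11.30 in liver-null livers (2.07-fold, log2 1.05, SE 0.15, limma adjusted p = 0.0127). Tkt, transketolase of the pentose phosphate pathway, read 10.67, 10.88 and 10.87 against 11.44, 11.64 and 11.46, and a second probe set rose by 0.95 (limma adjusted p = 0.0301). Pgd, which yields NADPH in the same pathway, was higher by 0.58 and passed only with the covariate. Malic enzyme Me1 read 7.98, 9.0 and 8.88 against 10.01, 9.93 and 9.66, without overlap, but missed both fits (log2 1.25, SE 0.30, limma adjusted p = 0.0903 and 0.0542). Among 14 tested genes that feed NADPH or belong to the pentose phosphate route Tkt was the only one called, with a median of 0.08, and Taldo1 (0.07) and Idh1 (0.05) differed little. Nqo1 and Ugdh lost their calls only without liver-null 5 (log2 differences of 2.33 to 3.18 and 0.90 to 1.14 over the fits), Tkt and Aox1 without wild-type 8 or 9 or liver-null 4 or 5 (0.63 to 0.74 and 1.04 to 1.27).

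Heme handling and export gave further members. Slc48a1, which carries heme across membranes, read 5.40, 6.11 and 6.56 in wild-type and 7.54, 8.39 and 7.26 in liver-null livers (3.27-fold, log2 1.71, SE 0.32, limma adjusted p = 0.0391). Blvrb, a biliverdin reductase, was higher by 0.97 and passed only with the covariate. Hmox1, the heme oxygenase of the same list, read 5.14, 5.02 and 4.89 against 8.65, 7.43 and 4.28. Liver-null 4 and 5 stood far above the wild-type arrays and liver-null 16 below them, so the difference of 1.77 passed neither fit (limma adjusted p = 0.594 and 0.352). Abcb10, a mitochondrial transporter tied to heme synthesis, fell 2.37-fold, and the conjugate exporter Abcc3 was higher by 1.07 without passing (limma adjusted p = 0.141). Both calls, of Slc48a1 and Abcb10, were lost without wild-type 8 or 9 or liver-null 4 or 5, with differences of 1.38 to 1.98 and -1.38 to -1.03.

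The start-site windows of 3 called members are printed because they hold the core letters of the antioxidant response element, the site that NRF2 is known to bind. The windows run from 250 bases before to 50 bases after the start of the gene, 300 bases in RefSeq on build GRCm38.p6, and are written 5′ to 3′ on the strand of the gene, with capitals marking each match to TGACNNNGC or to its reverse complement.
Txnrd1, chr10:82858956-82859255, plus strand: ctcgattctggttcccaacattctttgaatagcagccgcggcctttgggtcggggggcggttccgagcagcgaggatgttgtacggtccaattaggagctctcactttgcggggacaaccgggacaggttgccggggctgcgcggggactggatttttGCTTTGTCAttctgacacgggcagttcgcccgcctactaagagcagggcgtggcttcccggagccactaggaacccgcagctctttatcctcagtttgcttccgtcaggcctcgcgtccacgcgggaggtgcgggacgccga
Srxn1, chr2:152105274-152105573, plus strand: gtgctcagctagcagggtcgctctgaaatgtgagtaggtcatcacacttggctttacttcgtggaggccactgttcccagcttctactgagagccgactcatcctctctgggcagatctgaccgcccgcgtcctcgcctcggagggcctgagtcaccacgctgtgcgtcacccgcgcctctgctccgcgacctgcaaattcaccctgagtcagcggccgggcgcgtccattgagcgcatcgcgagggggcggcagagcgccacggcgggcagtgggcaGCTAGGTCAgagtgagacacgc
Ugdh, chr5:65435793-65436092, minus strand: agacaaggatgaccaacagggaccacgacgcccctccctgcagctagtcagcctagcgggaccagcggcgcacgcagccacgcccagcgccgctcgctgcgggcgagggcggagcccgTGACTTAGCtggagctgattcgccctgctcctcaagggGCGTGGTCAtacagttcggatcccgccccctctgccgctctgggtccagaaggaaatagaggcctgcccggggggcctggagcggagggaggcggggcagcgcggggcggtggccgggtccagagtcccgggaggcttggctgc
The match in Txnrd1 starts 92 bases before the start of the gene and that in Srxn1 28 bases after it, both on the opposite strand, and Ugdh has a match on each strand. Searched on both strands, the motif stood in 5 of the 26 genes called higher that have a window (19.2%: Fitm1, Pparg, Srxn1, Txnrd1 and Ugdh), in 4 of 17 called lower (23.5%), in 17.1% of 6893 tested genes and in 12.4% of 32851 windows. It stood in 7 of 23 core NRF2 targets (30.4%). The share in the called genes was near that of all tested genes, and a match is no evidence of binding.

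Genes of drug metabolism outside the NRF2 list are read beside all genes, of which 0.638% were called. None of 41 tested cytochrome P450 genes was called, which at that share is no result about them. Their median was -0.04, and Cyp2e1, which oxidises acetaminophen, read 13.02 to 13.21 on all 6 arrays. With the covariate Cyp2c38 passed as higher (1.49), and Cyp17a1 (-0.70) and Cyp4v3 (-0.60) as lower. Cyp2b9 read 1.29, 1.62 and 1.71 in wild-type and 4.47, 2.24 and 6.63 in liver-null livers, without overlap but with a wide liver-null spread, and did not pass (limma adjusted p = 0.205). Groups did not overlap for 29.3% of the P450 genes, 31.6% of 19 uptake transporters and 39.3% of 28 aldehyde, alcohol, esterase and flavin enzymes, against 15.2% of all genes. Of the uptake transporters Slco1a4 (-1.59) and Slc22a5 (1.51) had large differences and were not called (limma adjusted p = 0.136 and 0.109). Of the 19 transporters Slco1a1, an organic anion carrier, was called lower: it read 9.47, 9.72 and 9.40 against 8.32, 8.88 and 8.62, and a second probe set was lower by 1.26 (log2 -1.26, limma adjusted p = 0.0570). Ces1g, a carboxylesterase, was higher by 1.34 with the covariate alone. The Slco1a1 call was lost without any saline array except wild-type 10, with differences of -1.06 to -0.78.

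In the opposite direction, several genes that desaturate and elongate fatty acids fell. Of 16 tested desaturases, elongases and partners, 4 were called lower and none higher, where 0.272% of all genes were called lower, and 6 were lower with the covariate. Their median was -0.38. Scd1, stearoyl-CoA desaturase, which makes monounsaturated fatty acids, read 12.66, 12.23 and 12.08 in wild-type and 10.70, 9.24 and 10.50 in liver-null livers. Liver-null 5 was the lowest and no arrays overlapped (4.53-fold lower, log2 -2.18, SE 0.40, limma adjusted p = 0.0355). A second Scd1 probe set was lower by 2.54 (log2 -2.54, limma adjusted p = 0.129), with wild-type 8 high at 8.07.

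The desaturases of polyunsaturated fatty acids fell beside Scd1. Fads1 read 10.74, 10.57 and 10.40 against 9.39, 9.66 and 9.65, a 2.01-fold fall (log2 -1.01, SE 0.13, limma adjusted p = 0.0119). Fads2 read 10.53, 10.33 and 10.22 against 8.33, 9.24 and 9.36, a 2.61-fold fall in which liver-null 4 lay lowest. Elovl5, an elongase that acts on their products, fell 1.88-fold on its represented probe set and passed on its other one too (log2 -0.93, limma adjusted p = 0.0462). Elovl6, which lengthens palmitate, read 8.71, 8.51 and 8.34 against 5.98, 5.22 and 6.41, the largest fall of the list (log2 -2.65, SE 0.56), and passed only with the covariate (limma adjusted p = 0.0590 and 0.0357). Elovl2 was lower by 0.91 on the same terms, and Scd2 (0.01), Tecr (0.08) and Hacd3 (0.31) did not move down. The Fads1 call was lost without wild-type 8 or 9 (-1.09 to -0.92 over the fits), and those of Scd1, Fads2 and Elovl5 without wild-type 8 or 9 or liver-null 4 or 5, where Scd1 ranged from -2.45 to -1.73.

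The lipogenic enzymes and their regulators showed large differences, several of them uncalled. Of 22 tested, 2 were called lower (Scd1 and Aacs) and none higher, where 0.272% of all genes were called lower. Of the 22, 17 were lower, against 4673 of all 8469 genes, and the median was -0.55. Srebf1, the gene of the SREBP that drives fatty acid synthesis, read 9.93, 9.80 and 9.84 in wild-type and 5.98, 7.14 and 8.78 in liver-null livers. The wild-type arrays were close together while the liver-null arrays spread over more than 2 units below them, and the difference of -2.56 passed neither fit (SE 0.70, limma adjusted p = 0.139 and 0.0542). Fasn, fatty acid synthase, read 10.10, 9.66 and 10.02 against 8.53, 6.47 and 8.08 (log2 -2.24, limma adjusted p = 0.202 and 0.105). Mid1ip1, an activator of acetyl-CoA carboxylase, was lower by 1.96 (log2 -1.96) and Gpam, which begins triglyceride synthesis, by 0.88 (log2 -0.88), both with the covariate only. Mlxipl, the gene of ChREBP, was at -0.36. In the same list Me1 was higher (above), and Insig2, which retains SREBP precursors, was higher by 1.04 with the covariate only. Aacs lost its call without any saline array except wild-type 10 (-1.74 to -1.37 over the fits).

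Angptl8, a hormone of liver and fat that is induced by feeding and restrains lipoprotein lipase, had the largest fall of all genes tested. It read 9.72, 9.02 and 9.84 in wild-type and 5.15, 5.19 and 5.84 in liver-null livers. The genotypes were more than 3 log2 units apart on every array (17.6-fold lower, log2 -4.13, SE 0.58, limma adjusted p = 0.0127). The call was lost without wild-type 8 or liver-null 4 or 5, although the difference stayed between -4.39 and -3.98. Angptl4 was at 0.91, with overlapping groups, and the lipoprotein lipase gene Lpl at -0.15. Pla1a, a phosphatidylserine phospholipase, fell 2.76-fold, and Pnpla7, a lysophospholipase, 1.90-fold, from 10.14, 10.03 and 9.76 to 9.12, 8.97 and 9.07; their calls were lost without wild-type 8 or 9 or liver-null 4 or 5 (-1.70 to -1.26 and -1.03 to -0.84).

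Sterol genes were lower as a group in their values, with 2 calls. Of 29 tested genes of sterol synthesis, uptake and trafficking, 22 were lower, against 4673 of all 8469 genes, and the median was -0.47. In the list 2 were called lower and none higher, where 0.272% of all genes were called lower. Stard4, which carries cholesterol between membranes, read 8.59, 8.59 and 8.27 in wild-type and 6.93, 7.48 and 7.26 in liver-null livers (2.39-fold lower, log2 -1.26, SE 0.15, limma adjusted p = 0.00681), and kept its call whichever array was left out. Sc5d, a late enzyme of cholesterol synthesis, read 11.04, 11.06 and 10.79 against 10.05, 10.33 and 10.07, a 1.76-fold fall lost without wild-type 8 or 9 or liver-null 4 (-0.91 to -0.77). Dhcr7, the last enzyme of that pathway, was lower by 1.36 (log2 -1.36) and passed with the covariate, as did Pmvk (-0.97) and the lipoprotein receptor gene Scarb1 (-0.86). Idi1 (-1.07) and Sqle (-1.13) passed neither fit, and Srebf2, the gene of the SREBP that drives sterol synthesis, was at -0.05. The list stood at 0.09, 0.53 and 0.08 in wild-type 8, 9 and 10 and at -0.11, -0.14 and -0.45 in liver-null 4, 5 and 16, so the highest mean was that of wild-type 9 and the lowest that of liver-null 16.

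Some genes that take up and store fat rose. Of 23 tested genes around Pparg and the lipid droplet, 4 were called higher, as were 0.366% of all genes, and none lower. Yet the median was 0.07, so the rest of the list did not share the rise. Pparg, the nuclear receptor that drives fat storage, read 3.33, 3.83 and 4.07 in wild-type and 5.91, 5.42 and 5.44 in liver-null livers (3.61-fold, log2 1.85, SE 0.27, limma adjusted p = 0.0160). Cd36 read 6.52, 6.12 and 6.51 against 8.72, 8.49 and 8.82. The spread within each genotype was small beside the 4.91-fold difference (log2 2.30, SE 0.22, limma adjusted p = 0.00319).

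The droplet-related genes Fitm1 and Cidec rose. Fitm1, which helps partition triglyceride into droplets, read 3.11, 6.15 and 5.73 in wild-type and 8.34, 8.45 and 7.84 in liver-null livers. Wild-type 8 alone was at background, and the 9.29-fold difference was 2.27 on the log2 scale without that array. Cidec, a droplet fusion protein, read 1.96, 2.85 and 3.0 against 6.86, 5.73 and 4.41, from background in wild-type livers to a graded rise in which liver-null 4 was highest and liver-null 16 lowest (log2 3.06, within-set differences of 3.89 and 1.41). With wild-type values at background, no exact fold is given for Cidec. Plin4, a droplet coat protein, read 3.12, 4.25 and 4.37 against 8.38, 7.88 and 5.55 and passed only with the covariate (log2 3.36, SE 0.74, limma adjusted p = 0.0654 and 0.0293). Among the other members, none of which was called, Fabp5, a fatty acid binding protein, had the largest difference, lower without overlap (log2 -1.32, limma adjusted p = 0.229). Mogat1, which makes diglyceride, was at 0.79, Plin5 at 0.45, Plin3 at 0.13, Plin2 at -0.25, Cideb at -0.27 and G0s2 at -0.48. Fabp2, of the same family as Fabp5, was lower by 0.75 and passed with the covariate. The Fitm1 call was lost when liver-null 4, 5 or 16 was left out, Cidec without wild-type 8 or 9 or liver-null 5 (2.47 to 3.69), and Pparg without wild-type 8 or 9 or liver-null 4 or 5 (1.64 to 2.01).

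**Figure D4:**
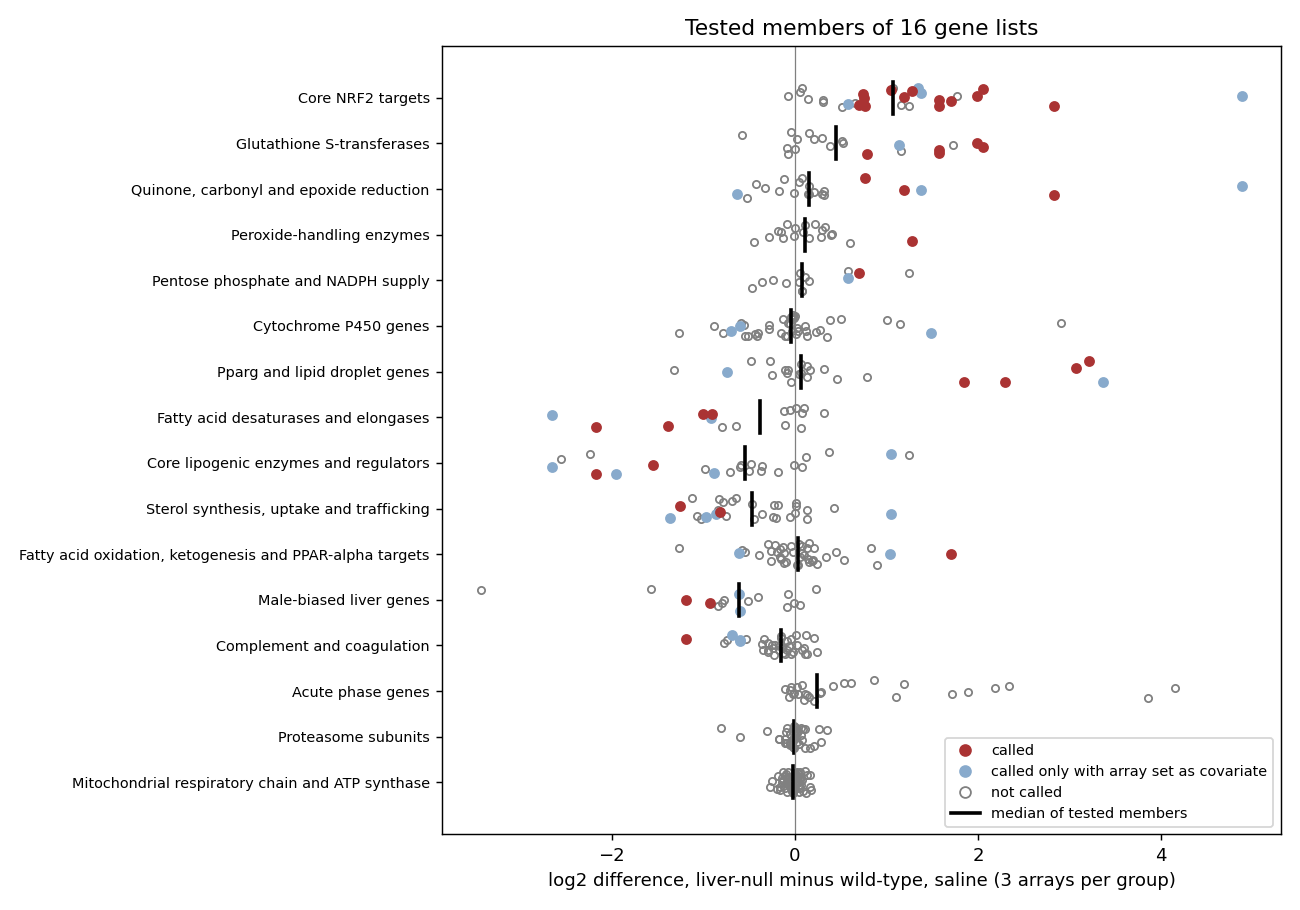
Each point is a tested member of 1 of 16 gene lists at its log2 difference between liver-null and wild-type saline livers (3 arrays each), red if called, blue if it passed only with the array set as a covariate and open if neither; black bars are list medians. Core NRF2 targets centre at 1.07 and lipogenic genes at -0.55, while the respiratory chain (57 members, -0.02) and the proteasome (41 members, -0.01) lie close to 0.

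Among genes of fatty acid oxidation and central energy metabolism Vnn1 alone was called, where 0.638% of all genes were called. With so low a share over all genes, 1 call or none in a list of this size is no result about the list. Of 41 tested genes of fatty acid oxidation, ketogenesis and PPAR-alpha targets, 1 was called: Vnn1, a pantetheinase of the coenzyme A cycle, read 7.17, 7.85 and 8.37 in wild-type and 9.60, 9.40 and 9.48 in liver-null livers (3.25-fold, log2 1.70, SE 0.28, limma adjusted p = 0.0206; lost without wild-type 8 or 9 or liver-null 4 or 5, 1.39 to 1.99). The list's median was 0.04, with Pex11a at 1.04 (passing with the covariate), Pdk4 at 0.45 and Cyp4a14 at -1.27. Groups did not overlap for 31.7% of the list and for 7.02% of the respiratory chain genes below, against 15.2% of all genes. None of 57 respiratory chain and ATP synthase genes was called or passed with the covariate, and their differences ran from -0.27 to 0.17. None of 35 glycolysis and gluconeogenesis genes passed either fit. Among 16 glycogen genes the branching enzyme Gbe1 passed with the covariate (0.94), at 8.15, 8.66 and 8.94 against 9.19, 9.55 and 9.82.

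Among amino acid genes, Cbs, which commits homocysteine to cysteine synthesis, fell. It read 10.30, 9.90 and 9.63 in wild-type and 9.08, 9.05 and 8.87 in liver-null livers, and a second probe set fell by 1.45 on the log2 scale (limma adjusted p = 0.0276 and 0.0117). The next enzyme, Cth, was at -0.20, and of 19 tested genes of the methionine cycle and transsulfuration Cbs was the only one called. Rhbg, an ammonium transporter of the hepatocytes around the central vein, rose from 3.83, 4.61 and 4.14 to 5.49, 5.70 and 5.74 (2.73-fold, log2 1.45, SE 0.17, limma adjusted p = 0.00573) and kept its call whichever array was left out. Other genes of that zone did not go with it: glutamine synthetase (Glul) was at 0.12 and Lgr5 at 0.09. Cbs lost its call without any saline array but wild-type 10 (-1.10 to -0.76).

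Liver genes that males express more than females were lower in part. Of 16 tested, 2 were called lower and none higher, where 0.272% of all genes were called lower. Of the 16, 14 were lower, against 4673 of all 8469 genes, and the median was -0.61. C6, a component of the complement attack complex, read 10.0015, 9.87 and 9.39 in wild-type and 8.42, 8.80 and 8.46 in liver-null livers (2.29-fold lower, log2 -1.19, SE 0.22, limma adjusted p = 0.0332), and Slco1a1 is described above. C8a (-0.60) and Nudt7 (-0.61) passed with the covariate. Hsd3b5, a steroid enzyme of the male liver, read 11.24, 11.11 and 10.66 against 4.59, 9.06 and 9.05. Liver-null 4 was far below the other liver-null arrays. The difference of -3.43 was not called (limma adjusted p = 0.125), while without liver-null 4 it was -1.95 and passed (limma adjusted p = 0.0163). Liver-null 4 had the lowest mean of the male-biased list (-0.83) and the highest of the acute phase list (1.02); the part of the one in the other was not tested. Of 10 tested female-biased genes none was called, 5 were higher and 5 lower, and the median was 0.13. Groups did not overlap for 6 of the 10, 5 of them higher, against 15.2% of all genes, 6.48% higher. With the covariate Tox (0.90) passed as higher and Cyp17a1 as lower. The female-biased list stood at -0.25, -0.26 and -0.17 in wild-type and at 0.30, -0.00 and 0.39 in liver-null livers, again without overlap. Of 41 complement and coagulation genes C6 was the only one called, where 0.272% of all genes were called lower. Of the 41, 32 were lower, against 4673 of all 8469 genes, and the median was -0.15. The C6 call was lost without any saline array except wild-type 10 (-1.38 to -1.07).

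The other called genes stood outside these groups or in lists of their own. Cela1, a pancreatic-type elastase, read 8.07, 8.41 and 7.70 in wild-type and 6.28, 6.19 and 5.91 in liver-null livers, a 3.82-fold fall (log2 -1.93, SE 0.22, limma adjusted p = 0.00573). The other 5 tested markers of tissues that can be carried over with liver, such as pancreas and muscle, differed by -0.16 to 0.17, with Prss2 at 2.51 to 2.84 and Cela2a at 2.20 to 2.63 on every array, at background. Pcp4l1 rose from 1.86, 2.45 and 2.28, at background, to 3.66, 3.47 and 3.64, and the noncoding transcript Snhg11 from 2.20, 2.92 and 2.96 to 5.07, 5.49 and 4.22. Tceal8 rose 3.70-fold, from 7.14, 7.02 and 6.94 to 9.57, 8.66 and 8.53. Susd4, a complement regulator, fell from 4.94, 5.90 and 5.09 to 3.33, 4.02 and 3.57, and Ank3, a membrane scaffold, from 6.91, 7.11 and 5.73 to 4.50, 4.50 and 5.16. Cela1 and Pcp4l1 kept their calls whichever array was left out. Tceal8 lost its call without wild-type 8 or 9, Susd4 without wild-type 9 or liver-null 4, and Snhg11 and Ank3 without wild-type 8 or 9 or liver-null 4 or 5.

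Smaller called differences made up the rest. The rises were Tpm2 (tropomyosin; 1.17), Lgalsl (0.98), Chchd6 (0.96), Chpt1 (0.93), Nap1l1 (a histone chaperone; 0.74), Lad1 (0.69) and Pnrc1 (0.61). All 6 further probe sets of Nap1l1 were higher too, by 0.40 to 0.90. The falls were Smagp (-1.03), Ahnak (-0.95), Ttyh2 (-0.95), Septin4 (-0.71), Cnp (-0.65) and Nsmf (-0.55). Nsmf read 10.69, 10.81 and 10.76 in wild-type and 10.25, 10.15 and 10.21 in liver-null livers, with little spread in either group. Each of these 13 calls was lost without 3 or more of the 6 arrays in turn, wild-type 8 and wild-type 9 among them.

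Genes that passed only with the covariate numbered 189, of which 73 were higher and 116 lower. Lgals1, a galectin made by stromal and other cells, read 6.25, 7.42 and 7.67 in wild-type and 9.64, 9.78 and 8.31 in liver-null livers (log2 2.13, SE 0.43, limma adjusted p = 0.0518 and 0.0329). Cebpd, a transcription factor of the acute phase response, read 4.48, 4.87 and 4.68 against 7.58, 6.53 and 5.47 (1.85). Mvp, the major vault protein, was higher by 1.69. Ccnd1, the cyclin of entry into the cell cycle, read 6.80, 5.61 and 6.41 against 2.89, 4.84 and 4.60 (log2 -2.16, SE 0.46, limma adjusted p = 0.0605 and 0.0319). Mcm6 (-0.76) and Mcm7 (-0.80), of the replication helicase, passed beside it, among 27 tested genes of the cell cycle whose median was 0.02. Igfals, the carrier subunit of IGF1 in blood, was lower by 1.60 (log2 -1.60) and Bhlhe40, a clock-linked repressor, by 1.20 (log2 -1.20), and Foxa3, a liver transcription factor, by nearly the same amount in the array sets (-0.995 and -1.004).

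Acute phase genes varied between livers of the same genotype. None of 28 tested was called or passed with the covariate. Of the 28, 22 were higher, against 3796 of all 8469 genes, and the median was 0.24. Orm2, an orosomucoid, read 3.81, 6.15 and 5.05 in wild-type and 10.08, 9.10 and 8.30 in liver-null livers, and Lcn2 read 3.88, 10.49 and 6.03 against 12.96, 9.54 and 9.46. Wild-type 9 had the second highest Lcn2 of the 6 livers, so the genotypes overlapped for Lcn2 and not for Orm2 (log2 4.15, SE 1.00, limma adjusted p = 0.0903 and 0.0591). The list mean was -0.68, 0.02 and -0.52 in wild-type 8, 9 and 10 and 1.02, 0.16 and -0.01 in liver-null 4, 5 and 16. Asns, a target of ATF4 in the integrated stress response, read 7.25, 4.28 and 4.91 against 8.99, 8.54 and 6.22 and likewise passed neither fit, as did none of the 21 genes of that list.

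No marker of the other liver cells was called, and their lists differed in how far they moved with the genotype. Of 24 tested stellate cell, fibroblast and matrix markers 22 were lower, against 4673 of all 8469 genes, with a median of -0.28. None was called. Pdgfrb (-0.65), Col6a1 (-0.43) and Ecm1 (-0.41) passed as lower with the covariate, and Lgals1 as higher. The mean level of the list was 4.66 to 5.01 in wild-type and 4.51 to 4.76 in liver-null livers, with overlap. Its part in the differences above was not tested. Of 25 Kupffer cell and myeloid markers none was called, Clec4f (-0.63) passed as lower with the covariate, and the list means of the genotypes overlapped. The list stood lowest in wild-type 10 (-0.41) and liver-null 16 (-0.52), the arrays with the lower upper quartile, and highest in liver-null 4 (0.46). Marco, a macrophage receptor, read 7.38, 6.02 and 3.23 in liver-null 4, 5 and 16. Interferon-stimulated genes gave no call among 32, and Usp18 (-1.37) passed as lower with the covariate, with a median of -0.19 and the lowest mean in liver-null 16 (-0.57). The 5 tested lymphocyte markers averaged 2.72 to 2.94 on the 6 arrays, at background. The 6 tested erythroid markers averaged 3.88 to 4.05 in wild-type and 3.66 to 3.83 in liver-null livers, without overlap. None of them was called and their median was -0.07. Alas2 (-1.04), of the same list, passed as lower with the covariate only (limma adjusted p = 0.0393). How far the erythroid mean rested on Alas2 was not tested.

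**Figure D5:**
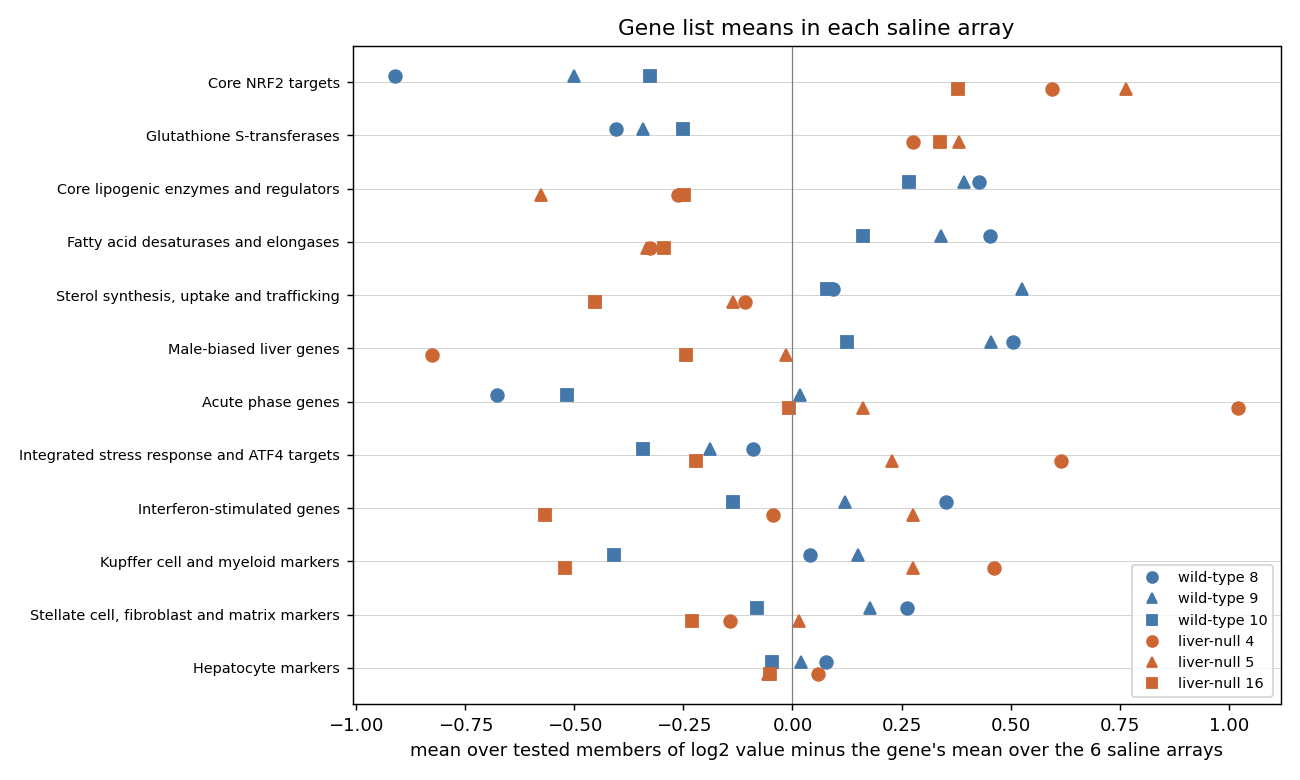
Each point is the mean over the tested members of a list, in 1 saline array, of each gene's log2 value after subtracting its own 6-array mean; blue is wild-type, orange liver-null, and squares are the arrays with the lower upper quartile. Core NRF2 targets, transferases, lipogenic, desaturase, sterol and male-biased lists separate the genotypes, acute phase genes do not (wild-type 9 at 0.02, liver-null 16 at -0.01), and myeloid markers are lowest in the 2 square arrays.

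The APAP groups were measured on 6 other arrays, which share the estimate of the spread and the choice of genes tested. There all 54 genes differed between the genotypes in the same direction. The share of all genes with equal directions was not taken, so this count only describes the values. Of the 54, 33 passed (limma adjusted p under 0.05), as did 0.768% of all genes tested there. Nqo1 differed by 2.83 in saline and 3.69 after APAP, Cd36 by 2.30 and 2.36, Stard4 by -1.26 and -1.18, and Angptl8 by -4.13 and -2.74. A test of whether the genotype difference itself depended on APAP passed for none of 8469 genes (limma; 109 at an unadjusted p under 0.05, and 326 with the covariate, again with none passing), so no saline difference was shown to be larger or smaller after APAP.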

How the data were processed

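Total RNA from 12 livers was labelled in a single amplification cycle and read on Affymetrix arrays, per the labels' protocols. The deposited values are log2 expression, 1 per probe set, from RMA per the submitters' processing notes; its version, its background model and joint or separate normalization are not stated in those notes or the labels. RMA shrinks differences near background, which bears on genes with values near 3. The table holds no detection calls. Depth has no count on arrays, and their number limits the precision. Nothing in the labels says more of the livers' origin than that they were biological replicates, so the p-values speak for these livers. They set each difference against a spread pooled over the livers of all 4 groups, APAP groups included, with a prior shared across genes.

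Of 22690 probe sets, 64 are controls, 20380 have 1 gene symbol, 691 several and 1555 none in the platform annotation, which can be old; 20351 matched the RefSeq table through Entrez identifiers and 0 symbols changed. A gene was its 1-symbol probe set with the highest mean (12393 genes), and was tested where above the array's 40th percentile on at least 3 of 12 arrays (8469 genes). A further probe set counted as having signal under the same filter. No normalization was added. limma 3.58.1 in R 4.3.3 fitted 4 group means over 12 arrays (8 residual and 3.43 prior degrees of freedom; 7 and 3.55 with the covariate), two-sided, with Benjamini-Hochberg adjustment over the tested genes. SE is the error of a log2 difference. The covariate separates the 4 arrays with a lower upper quartile from the other 8.

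Named were Txnrd1, each called gene, the 15 largest rises and 15 largest falls called only with the covariate, up to 6 called and 4 largest members per list, and tissue markers; other members of a list, such as those with small differences, were added after their values were seen. Among the 189 genes, those described were picked after their values were seen. The comparison, the 51 gene lists and this rule were chosen with earlier results of these data known, so no list test is given. The fit was tested on simulated data. Alternatives covered the filter, the probe set, normalization, variance model, array weights and each array left out. Promoter windows are from RefSeq, GRCm38.p6.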

Additional observations from a re-analysis of the deposited data

How the results depend on the processing

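The count of 54 genes was 54 with no filter, 68 with a filter at the 60th percentile, 64 with the mean of a gene's probe sets, 66 with every probe set tested and 78 after median centring. It was 104 after quantile normalization (53 higher, 51 lower), 121 with a trended and robust variance (53 and 68) and 243 with the array set as a covariate (104 and 139). It was 1323 with array weights (455 and 868), which gave wild-type 9 a weight of 4.63 and wild-type 10 one of 0.363. In fits to the 6 saline arrays alone it was 19 (14 and 5), of which 12 were among the 54. With the covariate that fit gave 24 (15 and 9), of which 14 were among the 54. Most of the 54 calls therefore needed the spread estimated with the APAP arrays. Leaving out 1 saline array gave 10 to 92 calls, and 35 (without wild-type 8) to 221 with the covariate (213 without wild-type 10), an alternative chosen after seeing the data. The share of higher calls, 57.4%, was 42.8% with the covariate, 43.8% with trend and robust, 34.4% with array weights, 73.7% in the fit to 6 arrays, and between 40.2% and 70% with 1 array left out. None of the 54 called genes, each by the same probe set or the mean of its probe sets, changed sign in the fits other than those to every probe set and those leaving out an array with the covariate, where signs were not compared. Of the named genes that were not called, Fgf21 turned from 0.90 to -0.50 with array weights and ran from -0.50 (without liver-null 4) to 1.65 with 1 array left out. S100a8 turned from 0.69 to -0.0198 with array weights and ran from -0.0846 (without liver-null 4) to 1.11. The causes were not tested. Of 408 list medians recomputed, 378 moved by less than the spread between arrays. No paired analysis was possible because the groups share no replicate numbers. With 3 arrays per group, signal near the array medians limits what can be seen of weakly expressed genes.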
